A study of Mus musculus with 3 samples.

Results

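The genes described here encode the proteasome, its assembly chaperones, its activators and its inhibitor, and were taken as every gene whose symbol begins with Psm, a letter from a to g and a digit. The rule found 50 of the 32285 genes in the deposited tables. Of these, 45 had a mean over the 3 libraries of at least 10 CPM, the UMIs of a gene (counts of captured RNA molecules) scaled to equal library totals, and 5 did not. One of the 45, Psmc3ip, carries a proteasome-like symbol but encodes a partner of meiotic recombinases, so it is kept in the counts and described apart. The study sequenced single cells of E14 cells, embryonic stem cells derived from 129/Ola mice, cultured in serum medium that contained leukemia inhibitory factor. The control library came from cells given ethanol for 6 h, starting 24 h after seeding. The other libraries came from cells given 250 µg/mL cycloheximide in 0.007% ethanol for 3 h or for 6 h. Cycloheximide blocks the elongation step of translation. All cells were frozen before barcoding, ethanol was applied for 6 h only and so is not matched to the 3 h treatment, and every group was 1 library of 1 cell line. No test between conditions was therefore possible, and differences have no replicate check. The 95% intervals below cover counting error only, or only the sampling of cells where they are given for a share of cells.

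The proteasome degrades proteins that carry ubiquitin chains. Its barrel-shaped core particle is built from rings of alpha subunits, which gate the entry, and rings of beta subunits, 3 of which (Psmb5, Psmb6 and Psmb7) cut peptide bonds. A regulatory particle caps the core. The base of this cap holds a ring of ATPases (Psmc genes) that unfold the substrate, together with large scaffold and ubiquitin-binding subunits, and its lid holds the deubiquitinase Psmd14 in a frame of scaffold subunits. Embryonic stem cells are known for high proteasome activity.

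Cells were barcodes with at least 15000 UMIs (unique molecular identifiers, each marking 1 captured RNA molecule) and 1 to 20% of UMIs from mitochondrially encoded genes. The control kept 2187 cells with a median of 43160 UMIs, the 3 h library 1739 cells with 51726 UMIs and the 6 h library 2554 cells with 46200 UMIs, and at most 3 barcodes were shared by any pair of libraries. The lower mitochondrial limit removed 62 barcodes from the control, 1 at 3 h and 8 at 6 h. All 10 stem cell markers examined were above 10 CPM on average, and their summed level was 7260 CPM without the drug, 8205 CPM after 3 h and 7318 CPM after 6 h. Dppa5a made up most of this sum, with 4771, 5327 and 5475 CPM. At 6 h only Dppa5a and Nanog (123 CPM without the drug, 145 CPM at 6 h) were above the control. The other stem cell markers were lower at 6 h, for example Pou5f1 (533 and 465 CPM) and Zfp42 (455 and 240 CPM). Markers of fibroblast feeders (6 genes), endoderm (5), trophoblast (4) and immune cells (4) were all below 10 CPM on average, and none of the 4 lists summed to more than 7.42 CPM in any library. Col3a1, Lum and Elf5 had 0 UMIs in every library. The mitochondrial share of UMIs was 4.57% without the drug, 3.51% after 3 h and 2.94% after 6 h.

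Transcripts of the 50 genes together made up 1.02% of all UMIs without the drug, 1.05% after 3 h and 1.11% after 6 h. By CPM, most members stayed near their control level. At 6 h, 3 of the 45 genes above 10 CPM were at least 20% lower than the control and 7 at least 25% higher, which is 6.67% and 15.6% of the 45. These limits are the same fold in both directions, and 35 of the 45 lay within them at both times. Over all 7608 genes above 10 CPM, 15.9% were lower and 37.9% higher by the same measure. At 3 h, 1 member was lower and 3 were higher, beside 8.33% and 29.5% of all genes. By mean UMIs per cell the counts differed, with 25 of 45 members at least 25% higher at 3 h and 18 at 6 h, beside 57.7% and 46.1% of all genes. Since most members are abundant, the 34 with a mean of at least 100 CPM were also set beside the 1583 genes of that level. Of these members 2 were lower and 2 higher at 6 h (5.88% each way), against 14.8% and 24.1% of the abundant genes.

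**Figure D1:**
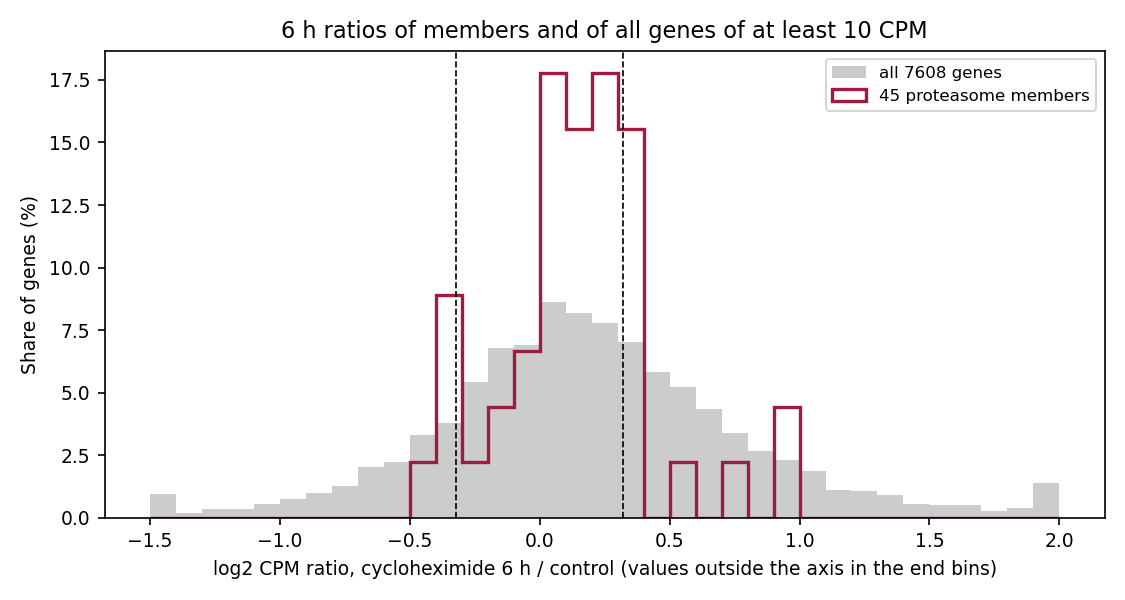
Distribution of log2 CPM ratios at 6 h against the control (horizontal axis), as the share of genes in bins (vertical axis, percent), for the 45 proteasome members (red outline) and all 7608 genes above 10 CPM (grey); dashed lines mark 20% lower and 25% higher. The members span -0.40 to 0.97, with 35 of 45 between the dashed lines.

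The median log2 ratio of the 45 members was 0.16 at 6 h and 0.063 at 3 h. The median over all genes was 0.17 at 6 h and 0.11 at 3 h, so the members' median was close to that of all genes at 6 h and below it at 3 h. Among genes of at least 100 CPM, the 6 h median was 0.13 for the 34 members and 0.051 for all 1583. The spread of the members was narrower than that of all genes. From the 5th to the 95th percentile, members ran from -0.34 to 0.70 at 6 h and all genes from -0.73 to 1.26. A CPM value is a share of the library, and its zero depends on the scaling. TMM factors, which scale libraries to the bulk of genes instead of to totals, shifted the 3 h ratios by -0.17 and the 6 h ratios by -0.29. With these factors, 13 of 45 members were above 0 at 6 h in place of 34. Mean UMIs per cell, which keeps the difference in RNA captured per cell, shifted ratios by 0.27 and 0.11 and left 38 of 45 above 0 at 6 h. Differences between members do not depend on this choice, and the text below gives both kinds of value.

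**Figure D2:**
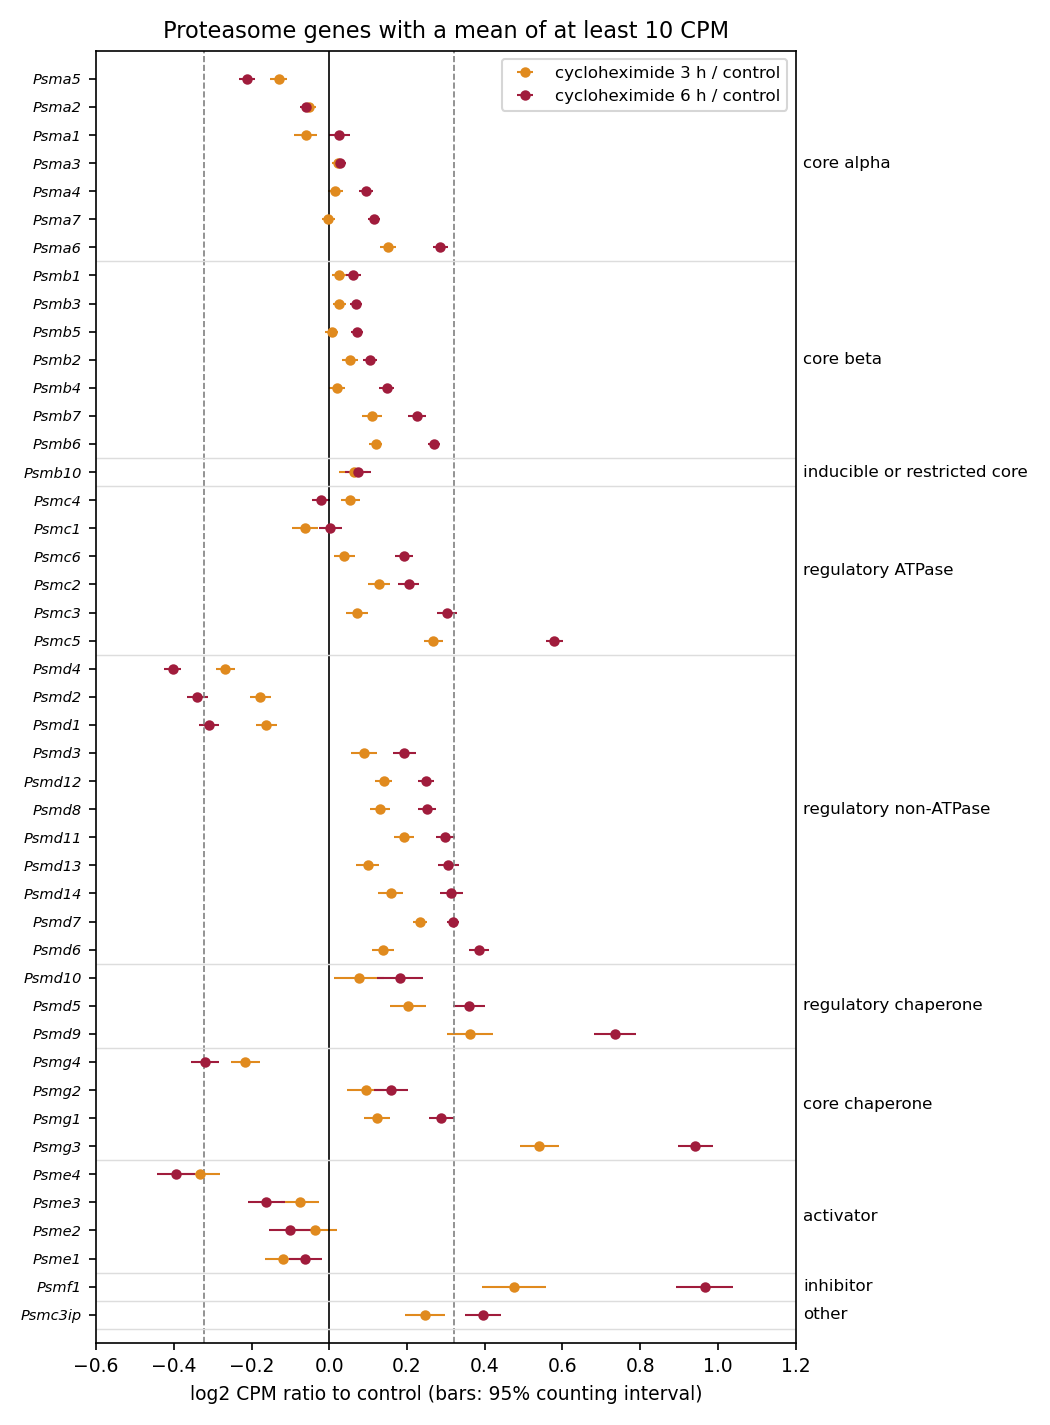
Log2 CPM ratio to the control (horizontal axis) for each of the 45 genes (rows, grouped by role) at 3 h (orange) and 6 h (red); bars are 95% counting intervals and dashed lines mark 20% lower and 25% higher. All 14 constitutive core genes lie between the dashed lines, Psmd1, Psmd2 and Psmd4 lie left of 0, and Psmg3 and Psmf1 lie farthest to the right.

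The constitutive core particle stayed close to its control level by CPM. Its 14 genes summed to 5536 CPM without the drug (95% interval 5522 to 5549), 5625 CPM after 3 h (5611 to 5640) and 5892 CPM after 6 h (5879 to 5904). None of the 14 passed either limit at either time. Their 6 h log2 ratios ran from -0.21 for Psma5 to 0.29 for Psma6, and 12 of 14 were above 0. The summed ratio was 0.023 at 3 h and 0.090 at 6 h by CPM. Both sums were below 0 under TMM factors (-0.15 and -0.20), where all 14 genes were below 0 at 6 h, and above 0 by mean UMIs per cell (0.29 and 0.20). The direction of the core as a whole thus depended on the scaling, and at 3 h it also turned when barcodes under 1% mitochondrial UMIs were kept (-0.011) and when cells were thinned to equal depth (-0.0052).

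Among the alpha subunits, which form the outer rings and the gate, Psma5 and Psma6 moved apart. Psma5 had 333 CPM without the drug, 305 CPM after 3 h and 288 CPM after 6 h. Psma6 had 308, 342 and 376 CPM in the same libraries. The order of the pair was thus exchanged, with Psma5 above Psma6 in the control and below it at both times, and no counting intervals of the pair overlapped within a library. Psma2, whose gene overlaps AW209491 on the same strand, had 503, 486 and 483 CPM. The remaining members of the ring, Psma1, Psma3, Psma4 and Psma7, had 6 h log2 ratios between 0.026 and 0.12.

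The beta subunits were more uniform, with all 7 above 0 at both times by CPM. At 3 h the intervals of Psmb4 and Psmb5 included 0. Without the lower mitochondrial limit, Psmb1, Psmb2, Psmb3, Psmb4 and Psmb5 were below 0 at 3 h (-0.0089, -0.0054, -0.056, -0.0052 and -0.047). Of these, only Psmb3 was also below 0 at 6 h (-0.013). Psmb4 and Psmb5 were also below 0 at 3 h with cells thinned to 15000 UMIs (-0.032 and -0.039). The same held without cells above 2 times the median UMIs (-0.0036 and -0.020). Under TMM factors all 7 were below 0 at both times. The catalytic subunit Psmb6, which cuts after acidic residues, had 508 CPM without the drug (504 to 512), 552 CPM after 3 h (547 to 556) and 612 CPM after 6 h (608 to 616). Its 6 h ratio of 0.27 (0.25 to 0.28) was the highest of the ring. Psmb7, which cuts after basic residues, had 224, 241 and 261 CPM, a ratio of 0.23 at 6 h. Psmb5, which cuts after hydrophobic residues and is the main target of proteasome inhibitor drugs, had 510, 512 and 536 CPM, a ratio of only 0.071. Psmb1 was the lowest of the ring at 6 h, with 373, 379 and 389 CPM and a ratio of 0.062. Summed over each ring, the beta genes were 0.089 above the alpha genes in log2 ratio at 6 h (0.080 to 0.099).

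Some core subunits replace others in particular tissues. Psmb8, Psmb9 and Psmb10 take the place of the catalytic subunits after interferon exposure and in immune cells. Psmb10 was well expressed, with 108 CPM without the drug, 113 CPM after 3 h and 113 CPM after 6 h. Psmb9, below the floor of 10 CPM on average, had 4.43 CPM without the drug (4.05 to 4.84, from 494 UMIs), 6.20 CPM after 3 h (5.73 to 6.69) and 12.04 CPM after 6 h (11.5 to 12.6, from 1689 UMIs). The 6 h value was 2.71-fold the control, a log2 ratio of 1.44 (1.30 to 1.59), and it stayed above 0 under TMM factors (1.15). The summed level of the 4 immune markers was 1.24, 2.30 and 3.73 CPM in the same libraries, with 0 of 4 above 10 CPM. Within that list Itgam had 4, 66 and 205 UMIs and Cd3e 133, 180 and 317 UMIs, whereas Ptprc had 1, 0 and 0 and Lyz2 had 0, 0 and 1. Higher sums were not particular to the immune list. The trophoblast markers summed to 0.87, 2.08 and 3.15 CPM and the endoderm markers to 5.29, 7.36 and 7.42 CPM. The fibroblast feeder markers went the other way, with 2.48, 1.62 and 1.29 CPM. With no floor, 48.8% of all genes passed the limit for higher at 6 h. The part of the immune markers in the Psmb9 result was not tested. Psmb9 overlaps Tap1 on the opposite strand, and whether the counting used strand is not given in the sources used here. Psmb8 had 7, 7 and 19 UMIs in all cells together, and thymus-restricted Psmb11 had 2, 6 and 10. Testis-restricted Psma8 had 8.68, 8.53 and 8.75 CPM, with overlapping counting intervals.

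The regulatory particle was spread more widely than the core. Its 17 genes summed to 3711 CPM without the drug (3700 to 3722), 3907 CPM after 3 h (3895 to 3919) and 4162 CPM after 6 h (4152 to 4173). At 6 h, 2 were at least 20% lower and 2 at least 25% higher, and log2 ratios ran from -0.40 for Psmd4 to 0.58 for Psmc5. The SD over genes of the 6 h ratios was 0.27 for the 17 regulatory genes and 0.13 for the 14 core genes. Core transcripts outnumbered regulatory transcripts by 1.49 to 1 without the drug, 1.44 to 1 after 3 h and 1.42 to 1 after 6 h. The core was therefore 0.051 below the regulatory particle in log2 ratio at 3 h (0.043 to 0.059 below) and 0.076 below at 6 h (0.068 to 0.083 below). This difference is the same under every scaling of the libraries. It was -0.084 at 3 h when barcodes under 1% mitochondrial UMIs were kept, and -0.16 at 6 h when taken between medians of the genes' ratios. Without replicates its size cannot be set against variation between cultures.

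Of the 6 ATPases, Psmc5 stood apart. Its gene lies on GRCm38 chromosome 11 (106256154 to 106263120, plus strand), and it had 225 CPM without the drug (222 to 228), 271 CPM after 3 h (268 to 274) and 336 CPM after 6 h (333 to 339), with the 6 h library highest. Its log2 ratios were 0.27 (3 h) and 0.58 (6 h, interval 0.56 to 0.60), and the latter became 0.29 under TMM factors. Psmc4 was the lowest of the ring, with 245, 255 and 242 CPM and a 6 h ratio of -0.021 whose interval included 0. Psmc1 was also at its control level at 6 h, with 143, 137 and 143 CPM. Psmc2, Psmc3 and Psmc6 had 6 h ratios of 0.20, 0.30 and 0.19. Transcripts for subunits of the same ATPase ring were therefore not moved by one common amount.

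The 11 non-ATPase subunits divided in a way that followed their place in the particle. Psmd1, Psmd2 and Psmd4 belong to the base or to its hinge with the lid, and all 3 were lower at both times by CPM. The other 8 belong to the lid, and all 8 were higher at both times by CPM. The 6 ATPases also belong to the base but did not share the direction of these 3 genes. By CPM 5 of the 6 ATPases were above 0 at each time, but not the same 5. Psmc1 was below 0 at 3 h (-0.062) and Psmc4 at 6 h (-0.021), so 4 were above 0 at both times. The summed log2 ratio of the 6 ATPases was 0.23 at 6 h. The division thus holds among non-ATPases and not for the base as a whole. The division into base and lid is textbook structure, but it was applied here after the values had been seen and was not tested.

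**Figure D3:**
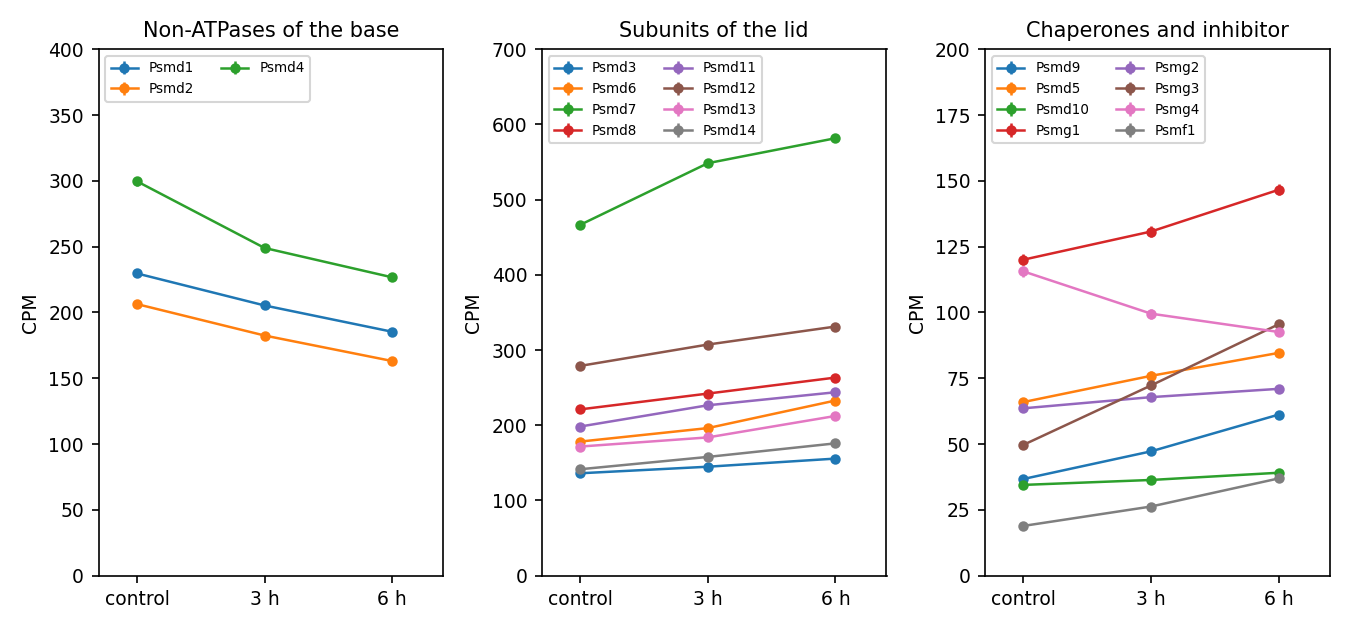
Level in CPM (vertical axes, from 0) in the control, 3 h and 6 h libraries (horizontal axes) of base non-ATPases, lid subunits, and chaperones with the inhibitor; each point is 1 library and bars, mostly hidden by the points, are 95% counting intervals. All 3 base lines descend, all 8 lid lines ascend, and Psmg3 and Psmg4 meet at 6 h.

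Psmd4, a receptor for ubiquitin chains that sits between base and lid, lies on GRCm38 chromosome 3 (95032694 to 95042614, minus strand) and had 299.6 CPM without the drug (296 to 303), 249 CPM after 3 h (246 to 252) and 227 CPM after 6 h (224 to 229). Psmd2, the scaffold of the base that docks ubiquitin-like shuttle proteins, had 206, 182 and 163 CPM. Psmd1, the other large scaffold of the base, had 229.7, 205 and 185 CPM. For each of these genes the counting intervals of the 3 libraries did not overlap, and the control was highest. Their 6 h log2 ratios were -0.40, -0.34 and -0.31, and they stayed below 0 at 6 h under TMM factors (-0.69, -0.63 and -0.60) and by mean UMIs per cell (-0.29, -0.23 and -0.20). At 3 h the direction depended on the scaling, since the CPM ratios of -0.27, -0.18 and -0.16 became 0.003, 0.092 and 0.11 by mean UMIs per cell. Psmd2 and Psmd4 were at least 20% lower at 6 h, and Psmd1 missed that limit.

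The 8 Psmd genes of the lid had 6 h log2 ratios between 0.19 and 0.39. Psmd6, a scaffold subunit, was the highest, with 178 CPM without the drug (176 to 181), 196 CPM after 3 h (194 to 199) and 233 CPM after 6 h (230.4 to 235). Psmd14, the deubiquitinase that removes chains before a substrate enters the core, had 142, 158 and 176 CPM, a 6 h ratio of 0.31. Its inactive partner Psmd7 had 467, 548 and 582 CPM, a ratio of 0.32 that lay just under the limit of 25%. Psmd3 was the lowest of the lid at 6 h, with 136, 145 and 156 CPM and a ratio of 0.19. Psmd8, Psmd11, Psmd12 and Psmd13 fell between these values, from 0.25 to 0.31. Under TMM factors 5 of the 8 lid genes were above 0 at 6 h and 2 of 8 at 3 h, so the direction against the control rests on the scaling, whereas the distance from the base subunits does not. Summed, the lid was 0.37 above the base non-ATPases in log2 ratio at 3 h (0.35 to 0.39) and 0.65 at 6 h (0.63 to 0.66).

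A pair of subunits lies outside the symbol rule. Adrm1, another ubiquitin receptor of the base, had 127, 115 and 87.3 CPM, a 6 h log2 ratio of -0.54 that was of the same sign as the base genes above. Sem1, a small subunit of the lid, had 499, 444 and 462 CPM, a ratio of -0.11, of opposite sign to the other lid genes by CPM. With Adrm1 added to the base non-ATPases and Sem1 to the lid, the distance between them was 0.30 at 3 h and 0.595 at 6 h.

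The promoters of regulatory genes are shown because these genes moved in separate directions. In RefSeq on GRCm38.p6, 42 of the 50 members had a promoter entry, running from 250 bases before to 50 after the annotated start. The motif CCGGAAG, the core letters bound by ETS-family activators, was searched on both strands. It was in the promoters of 15 of the 42 members (35.7%), of 8.86% of all 32851 promoters of that length, and of 25.5% of the 6084 genes above 10 CPM that had an entry. Among the regulatory particle genes 9 of 14 held it, and among the core genes 1 of 11. The windows below are 30 bases long, 5′ to 3′ along the gene, with the motif or its reverse complement in capitals. The first 4 are lid genes, which were higher at 6 h by CPM, and the last 2 are base non-ATPases, which were lower.
Psmd6 (chr14:14120972-14121001, minus strand): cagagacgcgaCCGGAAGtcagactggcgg
Psmd11 (chr11:80428593-80428622, plus strand): cgagggcgggtCTTCCGGgtgtgtgtttcc
Psmd12 (chr11:107479500-107479529, plus strand): tgagcgggcgaCTTCCGGtgcgagtgacga
Psmd13 (chr7:140882377-140882406, plus strand): cgcccgcggtgCCGGAAGtgagcgagcact
Psmd2 (chr16:20651615-20651644, plus strand): tccgcagggcgCTTCCGGtctggaggacaa
Psmd4 (chr3:95042721-95042750, minus strand): ttacagctgttCCGGAAGctgctgcgaagg

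The motif was thus present in 4 of 6 lid promoters and 2 of 3 promoters of base non-ATPases, on both sides of the division. In each of these 6 windows it began between 6 and 125 bases before the annotated start. The 15 members with the motif that were above 10 CPM had a median 6 h log2 ratio of 0.25 and the 23 without it 0.074. Over all genes above 10 CPM the same medians were 0.21 and 0.15. The CCAAT box, letters CCAAT on either strand, was in 15 of 42 members (35.7%) and 44.5% of those genes, with 6 of 11 core genes holding it. The letters TGACNNNGC, the core of the antioxidant response element bound by NFE2L1 and NFE2L2, were in 6 of 42 members (14.3%) and 16.6% of those genes. Members that held it included Psmd9, higher at 6 h, and Psme4, lower at 6 h, shown with the element in capitals.
Psmd9 (chr5:123228149-123228178, plus strand): atctagccggTGACCCCGCccacttccaag
Psme4 (chr11:30771758-30771787, plus strand): cgctgcggctGCAGCGTCAccagaagagcc

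These matches are of letters only and do not show that a factor is bound. Overlap between the motifs searched was not examined.

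Among the assembly chaperones, 6 h ratios ran from -0.32 for Psmg4 to 0.94 for Psmg3. These proteins pair with each other early in the building of the alpha ring, and by CPM their transcripts differed from the control in opposite directions. Psmg3, a gene on GRCm38 chromosome 5 (139823592 to 139826885, minus strand), had 49.7 CPM without the drug (48.4 to 51.04), 72.3 CPM after 3 h (70.7 to 73.9) and 95.5 CPM after 6 h (93.9 to 97.2). Its level at 6 h was 1.92-fold the control, a log2 ratio of 0.94 (0.90 to 0.99), and 0.66 under TMM factors. Psmg4 had 116 CPM without the drug (114 to 118), 99.5 CPM after 3 h (97.7 to 101.4) and 92.6 CPM after 6 h (91.0 to 94.2), a ratio of -0.32 that just missed the limit of 20% lower. By mean UMIs per cell Psmg4 was above 0 at 3 h (0.054) and below 0 at 6 h (-0.21), so its 3 h direction depended on the scaling. The level of Psmg4 was above that of Psmg3 in the control and at 3 h, and at 6 h their counting intervals overlapped. CPM here counts RNA molecules at their 3′ ends and is not divided by length.

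The other pair of core chaperones, Psmg1 and Psmg2, which hold alpha subunits together as the ring forms, differed less. Psmg1 had 120.05, 131 and 147 CPM, a 6 h ratio of 0.29. Psmg2 had 63.6, 67.8 and 71.0 CPM, a ratio of 0.16. Among chaperones that guide assembly of the ATPase ring, Psmd9 had 36.7 CPM without the drug (35.6 to 37.9), 47.2 CPM after 3 h (45.9 to 48.6) and 61.2 CPM after 6 h (59.9 to 62.5), or 1.67-fold the control at 6 h. Psmd5 had 66.0, 75.9 and 84.6 CPM, a ratio of 0.36. Psmd10 had 34.5, 36.4 and 39.1 CPM, a ratio of 0.18. All 3 of these chaperones were higher at both times by CPM, and Psmd5 and Psmd9 also under TMM factors.

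Psmf1, a protein that can inhibit the core particle in vitro, was the least abundant of the 45 members and had the highest 6 h ratio, with an interval that overlapped that of Psmg3. Its gene lies on GRCm38 chromosome 2 (151715812 to 151744186, minus strand), and it had 18.9 CPM without the drug (18.1 to 19.7), 26.3 CPM after 3 h (25.3 to 27.3) and 36.9 CPM after 6 h (35.9 to 38.0). This was 1.95-fold the control at 6 h, a log2 ratio of 0.97 (0.89 to 1.04), and 0.68 under TMM factors. The activators, which open the core gate in place of the regulatory particle, were all below 0 at both times by CPM. The 3 h interval of Psme2 included 0 (-0.095 to 0.020). Psme4, a large activator monomer, had 62.7 CPM without the drug (61.3 to 64.2), 49.8 CPM after 3 h (48.5 to 51.1) and 47.7 CPM after 6 h (46.6 to 48.9). Its ratios were -0.33 at 3 h and -0.39 at 6 h, and Psme4 was the only one of the 45 at least 20% lower at 3 h by CPM. Without the lower mitochondrial limit its 3 h ratio was -0.27 and it was no longer past that limit. Psme3, the nuclear activator, had 61.5, 58.3 and 54.9 CPM, a 6 h ratio of -0.16. Psme1 and Psme2, which join into 1 interferon-inducible ring, had 73.2, 67.4 and 70.2 CPM and 45.7, 44.6 and 42.6 CPM, with 6 h ratios of -0.061 and -0.10. By mean UMIs per cell, 3 of these 4 activators were above 0 at 3 h, and Psme1 and Psme2 were above 0 at 6 h, at 0.047 and 0.007. Psme2b, a close copy of Psme2, had 17, 13 and 13 UMIs.

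Psmc3ip, the gene that is not a proteasome gene, had 52.1, 61.8 and 68.6 CPM and a 6 h ratio of 0.395. Without it, 6 of the 44 members above 10 CPM were at least 25% higher at 6 h. These 6 were Psmf1, Psmg3, Psmd9, Psmc5, Psmd6 and Psmd5, and the 3 lower ones were Psmd4, Psme4 and Psmd2. Of the 10 called at 6 h, Psmc3ip included, 6 remained past their limit under TMM factors.

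Between 3 h and 6 h, 3 members (Psmf1, Psmg3 and Psmd9) were at least 25% higher and 0 at least 20% lower, beside 11.9% and 8.64% of all genes. The 3 h and 6 h ratios above share their control library. The 6 h against 3 h ratio, which leaves it out, was 0.49 for Psmf1, 0.40 for Psmg3 and 0.37 for Psmd9. It was -0.16 for Psmd2, -0.15 for Psmd1 and -0.14 for Psmd4. These 6 genes kept their direction from 3 h to 6 h under TMM factors and by mean UMIs per cell. Over all members the direction depended on the scaling, since 35 of 45 members were above 0 from 3 h to 6 h by CPM, 18 under TMM factors and 8 by mean UMIs per cell.

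Levels of 3 genes, the ratio of core to regulatory transcripts and the core share were compared across cells of different depth. Cells of each library were divided into tertiles of UMI count. Psmd4 was 297 to 311 CPM in the 3 control tertiles, 248 to 252 CPM at 3 h and 221 to 232 CPM at 6 h. Psmc5 was 212 to 244 CPM in the control tertiles, 261 to 289.9 CPM at 3 h and 329.7 to 352 CPM at 6 h. Psmg3 was 47.8 to 51.6, 67.4 to 75.1 and 94.3 to 97.0 CPM. For these 3 genes the tertile ranges of the libraries did not overlap. The ratio of core to regulatory transcripts was 1.485 to 1.498 in the control tertiles, 1.42 to 1.45 at 3 h and 1.399 to 1.43 at 6 h, so the ranges of the treated libraries overlapped each other and not that of the control. The direction of the core share at 3 h differed with depth. It was below the control in the lowest tertile (0.547% against 0.563%). It was above the control in the middle (0.580% against 0.567%) and highest tertiles (0.558% against 0.543%).

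**Figure D4:**
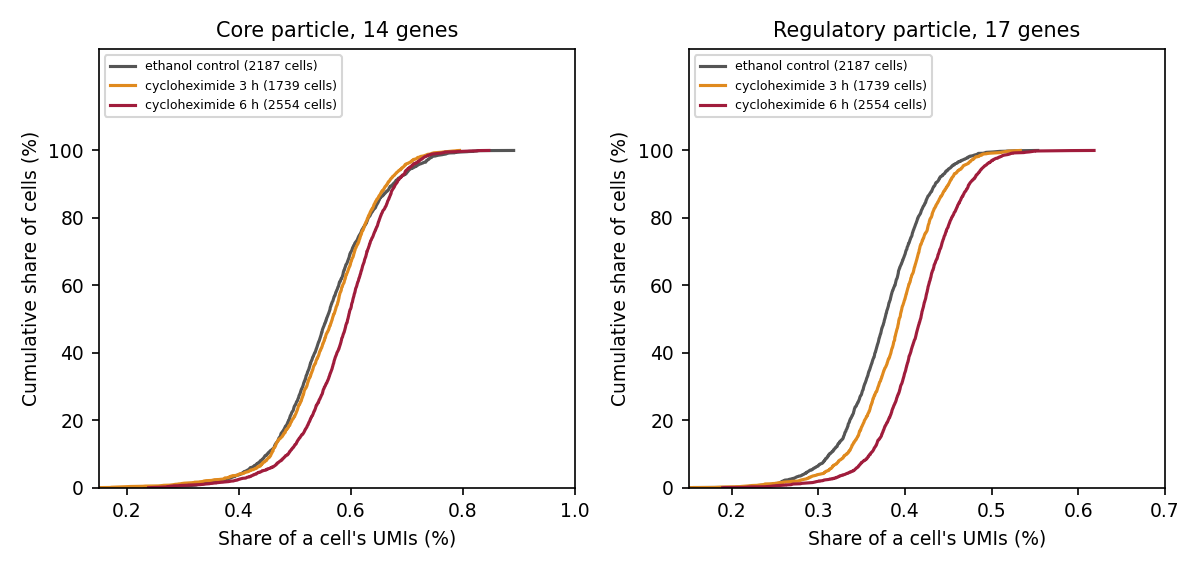
Cumulative share of cells (vertical axis, percent) against the share of a cell's UMIs from the 14 core genes (left) or the 17 regulatory genes (right), in percent (horizontal axes), for the control (grey), 3 h (orange) and 6 h (red) libraries. The regulatory curves are shifted to the right in order of time, with medians of 0.377%, 0.393% and 0.418%, and the core curves of the control and 3 h libraries nearly coincide.

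Within single cells the quartiles of the regulatory share were each higher in the treated libraries. A control cell had a median of 248 core UMIs and 167 regulatory UMIs. Quartiles of the regulatory share of a cell were 0.345% and 0.408% without the drug, 0.362% and 0.423% after 3 h, and 0.388% and 0.446% after 6 h, around the medians given with the curves. The median core share was 0.557%, 0.567% and 0.595%. With every cell thinned to 15000 UMIs, the regulatory share exceeded the control median in 48.8% of control cells, 57.6% at 3 h (95% exact binomial interval 55.2 to 59.9) and 72.3% at 6 h (70.5 to 74.0). For the core the same shares were 49.4%, 51.6% and 65.3%, and unthinned they were 49.98%, 54.4% and 69.1% for the core and 49.98%, 64.6% and 82.0% for the regulatory particle. Across cells of a library, the regulatory share was lower where the mitochondrial share was higher, with Spearman's rho of -0.33 over 2187 control cells, -0.21 over 1739 cells at 3 h and -0.15 over 2554 cells at 6 h. For the core, rho was -0.39, -0.31 and -0.23. Both shares are fractions of the same cell's UMIs, and the mitochondrial share was itself lower in the treated libraries, as given above. Its part in the differences between libraries was not tested. Cells are not replicates, and these shares describe 3 libraries.

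RNA outside cells was examined in barcodes with 10 to 100 UMIs, which hold mostly free RNA. These barcodes held 3598476 UMIs in the control library, 3304692 in the 3 h library and 3920976 in the 6 h library. All 10 members called at 6 h differed from the control in the same direction as in cells, and 3 of the 4 called at 3 h. Psme4 was the exception at 3 h, with 66.1 CPM in the control and 86.5 CPM at 3 h in free RNA. The 6 h log2 ratio of Psme4 was only -0.12 in free RNA, beside -0.39 in cells. Counting intervals are not given for free RNA, so small differences there cannot be told apart from counting error. The share of all genes with matching directions is not given either. These barcodes came from the same libraries as the cells, so the shared directions are not an independent check. The part of free RNA in the cell values was not tested beyond a subtraction of 10%, under which none of the members called at either time changed sign.

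Annotated transcripts were examined as a feature the symbols do not use. Nonsense-mediated decay degrades transcripts during their translation. In GENCODE M21, 14 of the 45 members (31.1%) had at least 1 transcript annotated as a target of this decay, as did 31.6% of all 7608 genes. The median 6 h ratio was 0.29 with and 0.12 without such a transcript among members, and 0.22 and 0.15 among all genes. Psmf1 and Psmc5 had an annotated target transcript, and Psmg3 and Psmd9 had none. Among members below the control, Psmd1 had 1 and Psmd2 had 2, and Psmd4 and Psme4 had none. The counts do not separate transcripts of a gene, so which of them moved was not tested.

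The genes that supply and serve the proteasome were read from a list of 26, of which 25 were found and 23 were above 10 CPM. At 3 h, 0 were at least 20% lower and 5 at least 25% higher, and at 6 h these counts were 5 and 8, beside the percentages of all genes given above. The median log2 ratio of the 23 genes was 0.115 at 3 h and 0.082 at 6 h, beside 0.112 and 0.166 over all genes. Nfe2l1, the transcription factor that raises proteasome genes when proteasome capacity falls short, was the lowest of the list, with 50.6 CPM without the drug, 44.6 CPM after 3 h and 33.3 CPM after 6 h, a log2 ratio of -0.60 (-0.66 to -0.55). Its relative Nfe2l2, a regulator of antioxidant genes, had 64.0, 119.7 and 112 CPM, a ratio of 0.81. The protease Ddi2, which activates the NFE2L1 protein, had 26.9, 39.0 and 40.9 CPM. Ube3c, a ubiquitin ligase bound to the proteasome, was the next lowest with 41.9, 34.1 and 27.9 CPM. Akirin2, which carries proteasomes into the nucleus, had 65.7, 87.5 and 119.1 CPM, a ratio of 0.86 and the highest above the floor. Pomp, the chaperone that completes the core particle, had 354, 365 and 374 CPM, a ratio of 0.079 close to that of the core genes it serves. Vcp, the unfolding ATPase upstream of the proteasome, had 291, 239 and 213 CPM, while its cofactors Ufd1 and Nploc4 had 6 h ratios of 0.65 and 0.62. Signs at 6 h changed under TMM factors for 4 of the 23 genes, which were Pomp, Ubqln2, Zfand5 and Usp14. Paaf1 was not analysed here.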

How the data were processed

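Polyadenylated RNA of single cells was captured with 10x Genomics 3' chemistry, per the labels. The authors deposited unnormalized UMI counts for every barcode, shallow ones included. The tool and build named are Cell Ranger 4.0.0 and mm10, per the submitters' processing notes. The annotation used is not given in the sources used here. Cells were selected and UMI counts summed per library as described in the report, giving totals of 111447486 (control), 106842407 (3 h) and 140321458 (6 h). CPM and log2 ratios (prior of 0.5 counts) were computed with Python 3.11.15, numpy 2.4.6 and scipy 1.17.1, and TMM factors over all genes with edgeR 4.0.16. Intervals are exact Poisson (CPM), exact conditional binomial (ratios) or Clopper-Pearson (shares). Differences of summed ratios have normal intervals from their counts. Ratio code was tested on simulated data. All 50 members matched GENCODE M21 by identifier. In it, 18 members overlap another counted gene, 3 on the same strand, so their counts are uncertain in that respect. Doublets were not removed.

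The members, the gene lists, the limits of 20% lower and 25% higher and the rule for naming genes (highest and lowest of each role, catalytic subunits, ubiquitin receptors, chaperones, activators and the inhibitor) were chosen with earlier results of these data known. Genes outside that rule (Psma2, Psma8, Psmb11, Psmc1, Psmd1, Psmd3, Psmd7, Vcp, Ddi2, Ufd1 and Nploc4) were added after their values were seen. One marker gene of the lists is not reported here. Psme3ip1 was matched through its older symbol.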

Additional observations from a re-analysis of the deposited data

How the results depend on the processing

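With 1 library per group the order of the 3 libraries cannot be told apart from variation between cultures and library preparations, and no paired analysis was possible because the groups share no replicates. Depth was not the limit for the 45 members, each of which had at least 2107 UMIs in every library; Psmb8 and Psmb11 were too sparse for a direction.

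Sums below are log2 ratios for core then regulatory genes. Under TMM factors they were -0.15 and -0.10 at 3 h and -0.20 and -0.12 at 6 h, all opposite to CPM. Per cell, mean UMIs gave 0.29 and 0.34 at 3 h, and 0.20 and 0.27 at 6 h. Without cells above 2 times the median UMIs they were 0.0025 and 0.059 at 3 h, and 0.066 and 0.14 at 6 h. With cells thinned to 15000 UMIs they were -0.0052 (opposite to CPM) and 0.053 at 3 h, and 0.075 and 0.15 at 6 h. The median of member ratios gave 0.099 for the regulatory genes at 3 h, and 0.083 and 0.25 at 6 h. Without a lower mitochondrial limit the core sum was -0.011 at 3 h (opposite to CPM) and 0.055 at 6 h, and subtracting 10% free RNA gave 0.034 and 0.095. Of alternatives chosen after seeing the data, TMM factors over genes above 10 CPM gave -0.088 and -0.037 at 3 h (both opposite to CPM), and -0.065 (opposite) and 0.010 at 6 h. Totals without mitochondrially encoded UMIs gave 0.0074 and 0.058 at 3 h, and 0.066 and 0.14 at 6 h.

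Core minus regulatory was -0.042 at 3 h with free RNA subtracted. Without a lower mitochondrial limit it was -0.084 at 3 h and -0.11 at 6 h, and with medians -0.078 and -0.16. It was below 0 in every alternative run. Lid minus base non-ATPases was above 0 in every alternative run, from 0.30 at 3 h and from 0.595 at 6 h.

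Members at least 20% lower numbered 5 (3 h) and 10 (6 h) with TMM factors, 0 and 0 by mean UMIs per cell, 3 and 6 under TMM factors over genes above 10 CPM, and 0 and 0 at 1.5-fold. The shares of all genes were 19.4% and 33.6% with TMM factors, 2.10% and 11.97% by mean UMIs per cell, 14.4% and 23.9% with factors over genes above 10 CPM, and 2.13% and 7.79% at 1.5-fold. Members lower numbered 0 at 3 h without a lower mitochondrial limit (7.05% of all genes) and 5 at 6 h with totals lacking mitochondrially encoded UMIs (16.9%). Members at least 25% higher numbered 1 and 3 under TMM factors, 25 and 18 by mean UMIs per cell, and 0 and 3 at 1.5-fold. The shares of all genes were 18.0% and 21.1%, 57.7% and 46.1%, and 13.9% and 22.1%. At 3 h members higher numbered 1 with a floor of 50 CPM (21.1% of all genes) and 5 with no floor (39.1%), and at 6 h 4 under TMM factors over genes above 10 CPM (27.8%). At the time at which it was called, no member changed sign under any alternative run on single members. Psmd2 and Psmd4, called at 6 h, changed sign at 3 h by mean UMIs per cell, and Psmd6, called at 6 h, changed sign at 3 h under TMM factors (-0.037).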
